A study of Mus musculus with 12 samples.

Results

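The beta subunits of the sodium pump were described in islet RNA through their 3 genes, *Atp1b1*, *Atp1b2* and *Atp1b3*, taken by name from a table of 24078 transcript entries. They were chosen because WFS1 protein, the product of *Wfs1*, is known to bind the beta 1 subunit. The rule uses names and no measured value, although earlier results of these data were known when it was set. All 3 were found, each in 1 entry, and all 3 passed the filter on low values. Pancreatic islets of 12 male mice were sequenced, 4 wild-type (WT), 4 heterozygous for the *Wfs1* mutation (Wfs1HZ) and 4 homozygous for it (Wfs1KO). All were F2 hybrids of 129S6/SvEvTac and C57BL/6, aged 5 to 6 months. In the mutant allele, Wfs1tm1Koks, a LacZ cassette stands in place of most of exon 8, and a truncated fusion protein is still expressed, so Wfs1KO is not a complete null. The allele is carried by all cells of the animal. Islets were freed by collagenase, picked by hand and kept overnight in high glucose medium. They hold endocrine cells together with remains of exocrine, vascular and connective tissue, and in bulk RNA fewer cells of a type and less RNA per cell cannot be told apart.

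The sodium pump (Na+/K+-ATPase) exports sodium and imports potassium across the plasma membrane at the cost of ATP. Its alpha subunit is the catalytic one, and the beta subunit is a glycoprotein with a single membrane span that the alpha subunit needs to fold in the endoplasmic reticulum, to leave it and to reach the cell surface. Small FXYD proteins bind the assembled pump and adjust its kinetics. WFS1 protein lies in the membrane of the endoplasmic reticulum, where beta subunits are made, and the comparison of genotypes asks whether RNA of the subunits differs when WFS1 is lacking.

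All 3 genes lie on the minus strand in mm10. *Atp1b1* (ENSMUSG00000026576.12) spans chr1:164437109-164458355, *Atp1b3* (ENSMUSG00000032412.8) spans chr9:96332655-96364442 and *Atp1b2* (ENSMUSG00000041329.13) spans chr11:69599736-69605942, all as protein-coding genes of GENCODE M21. The 2 more abundant members, *Atp1b1* and *Atp1b3*, were highly expressed in every animal while their start regions differ. Their reference promoters are shown, and the promoter set used held no entry for *Atp1b2*. Each is the 250 bases before a RefSeq start (GRCm38.p6), read 5′ to 3′ on the strand of the gene, at chr1:164458356-164458605 for *Atp1b1* and chr9:96364432-96364681 for *Atp1b3*. Capitals mark the motifs that were searched on both strands, namely the TATA box (TATAAA or TATATA), the CCAAT box (CCAAT), the GC box (GGGCGG) and the core of the cyclic AMP response element (TGACG).
Atp1b1: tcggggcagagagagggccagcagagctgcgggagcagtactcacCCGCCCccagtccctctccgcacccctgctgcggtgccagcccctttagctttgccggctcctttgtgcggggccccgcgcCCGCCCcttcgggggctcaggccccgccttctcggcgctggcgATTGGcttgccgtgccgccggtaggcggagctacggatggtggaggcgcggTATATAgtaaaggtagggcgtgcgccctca
Atp1b3: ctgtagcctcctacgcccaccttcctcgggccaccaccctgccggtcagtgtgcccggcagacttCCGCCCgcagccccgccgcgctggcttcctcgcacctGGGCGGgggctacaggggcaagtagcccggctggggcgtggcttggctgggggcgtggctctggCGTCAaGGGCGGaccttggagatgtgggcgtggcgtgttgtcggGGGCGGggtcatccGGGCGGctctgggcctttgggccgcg
The *Atp1b1* promoter held 1 TATA box, at position -30 from the start, with 1 CCAAT box and 2 GC boxes. The *Atp1b3* promoter held neither a TATA nor a CCAAT box, but 5 GC boxes and 1 cyclic AMP response element core, which *Atp1b1* lacked. No matches overlapped. Among 32851 promoters of the same length, 15.6% held the TATA box, 33.8% the CCAAT box, 32.7% the GC box and 17.8% the cyclic AMP response element core. Both promoters were rich in G and C, at 70.4% for *Atp1b1* and 73.6% for *Atp1b3*. *Atp1b3* has 2 RefSeq starts, and the start nearest to that of GENCODE was used. A match is a description of the letters and not a measurement of binding.

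*Atp1b1*, which encodes the beta 1 subunit, the widely used beta subunit of the pump, was the most abundant beta subunit RNA in islets. Levels are given as RPKM, reads normalised to transcript length and to the reads of the library, so that genes of unlike length can be set side by side. Its level was 154, 188, 180.0 and 158 RPKM in WT replicates 1 to 4. In Wfs1HZ replicates 1 to 4 it was 222, 229, 211 and 98.0 RPKM. In Wfs1KO replicates 1 to 4 it was 159, 170.3, 132 and 241 RPKM. The Wfs1HZ animals thus held both the lowest value of all, in replicate 4, and 3 values above every WT animal, while Wfs1KO replicate 4 had the highest value, and the 3 genotypes overlapped. Mean levels were 169.8 ± 16.8 RPKM in WT, 189.9 ± 61.8 in Wfs1HZ and 176 ± 46.2 in Wfs1KO (SD, n = 4 each). Over all animals the mean placed *Atp1b1* at the 99.4th percentile of the table.

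*Atp1b3* encodes the beta 3 subunit, a further beta subunit with wide expression. It reached 87.4, 75.9, 80.8 and 49.99 RPKM in WT replicates 1 to 4. It reached 75.9, 109, 70.1 and 39.7 RPKM in Wfs1HZ replicates 1 to 4. It reached 74.5, 68.0, 55.9 and 138 RPKM in Wfs1KO replicates 1 to 4. Wfs1KO replicate 4 stood highest, Wfs1HZ replicate 2 came next and Wfs1HZ replicate 4 stood lowest, and the 3 ranges overlapped. Mean levels were 73.5 ± 16.4 RPKM in WT, 73.6 ± 28.2 in Wfs1HZ and 84.2 ± 36.9 in Wfs1KO (SD, n = 4 each).

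*Atp1b2* encodes the beta 2 subunit, known from glia and neurons as an adhesion molecule on glia as well as a pump subunit. It was the least abundant member, at 4.02, 8.63, 4.72 and 4.46 RPKM in WT replicates 1 to 4. The values were 5.19, 19.1, 9.99 and 3.74 RPKM in Wfs1HZ replicates 1 to 4. The values were 4.58, 6.11, 1.79 and 18.4 RPKM in Wfs1KO replicates 1 to 4. Wfs1HZ replicate 2 and Wfs1KO replicate 4 stood far above the other animals, Wfs1KO replicate 3 was lowest, and the genotypes overlapped. Mean levels were 5.46 ± 2.13 RPKM in WT, 9.51 ± 6.93 in Wfs1HZ and 7.73 ± 7.37 in Wfs1KO (SD, n = 4 each). Glial markers were low throughout, at 0 to 0.56 RPKM for *Sox10*, 0.11 to 2.18 for *S100b* and 0.04 to 2.11 for *Gfap*, and *Sox10* was listed at 0 in 3 of 12 animals. *S100b* and *Gfap* were both highest in Wfs1HZ replicate 2, which also had the highest *Atp1b2*. Their part in the level of *Atp1b2* was not tested.

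**Figure D1:**
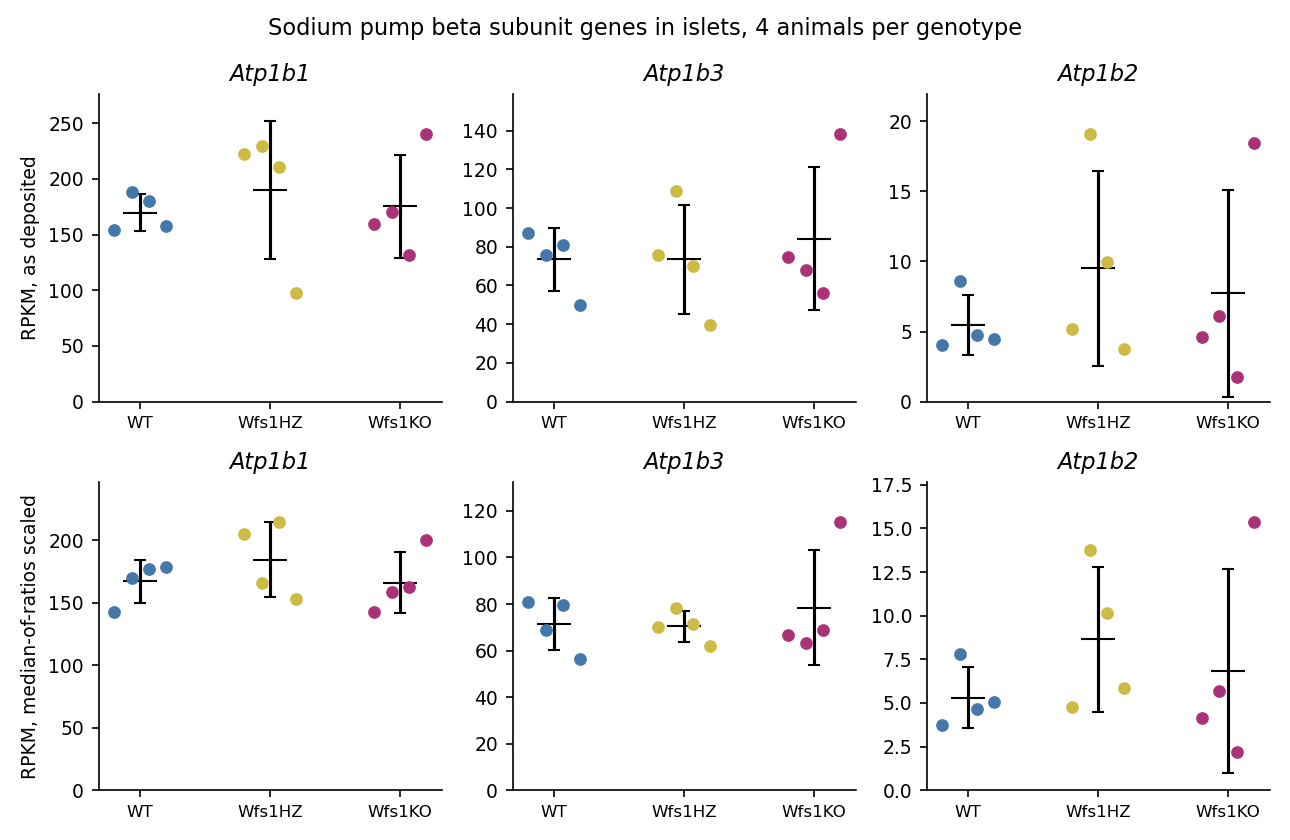
RPKM of *Atp1b1*, *Atp1b3* and *Atp1b2* (vertical axes from 0) in each animal by genotype (horizontal axis), as deposited (upper row) and after median-of-ratios scaling of the libraries (lower row). Points are animals in the order of replicates 1 to 4, bars are means with SD, and for *Atp1b1* the range of all animals narrows from 98.0 to 241 RPKM in the upper row to 142 to 214 RPKM in the lower.

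The order *Atp1b1* above *Atp1b3* above *Atp1b2* held in 12 of 12 animals, although the levels of *Atp1b1* and *Atp1b3* overlapped between animals. *Atp1b1* gave 60.5% to 74.3% of the summed beta subunit RPKM of an animal, with a mean of 68.3 ± 4.19% (SD, n = 12). *Atp1b3* gave 23.6% to 35.6%, with a mean of 29.0 ± 3.81%. *Atp1b2* gave 0.943% to 5.35%, with a mean of 2.65 ± 1.30%. The mean share of *Atp1b1* was 68.4 ± 4.76% in WT, 69.8 ± 4.09% in Wfs1HZ and 66.7 ± 4.29% in Wfs1KO (SD, n = 4 each), with overlapping ranges. Over 12 animals the coefficient of variation was 6.14% for the share of *Atp1b1* and 23.6% for its level.

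**Figure D2:**
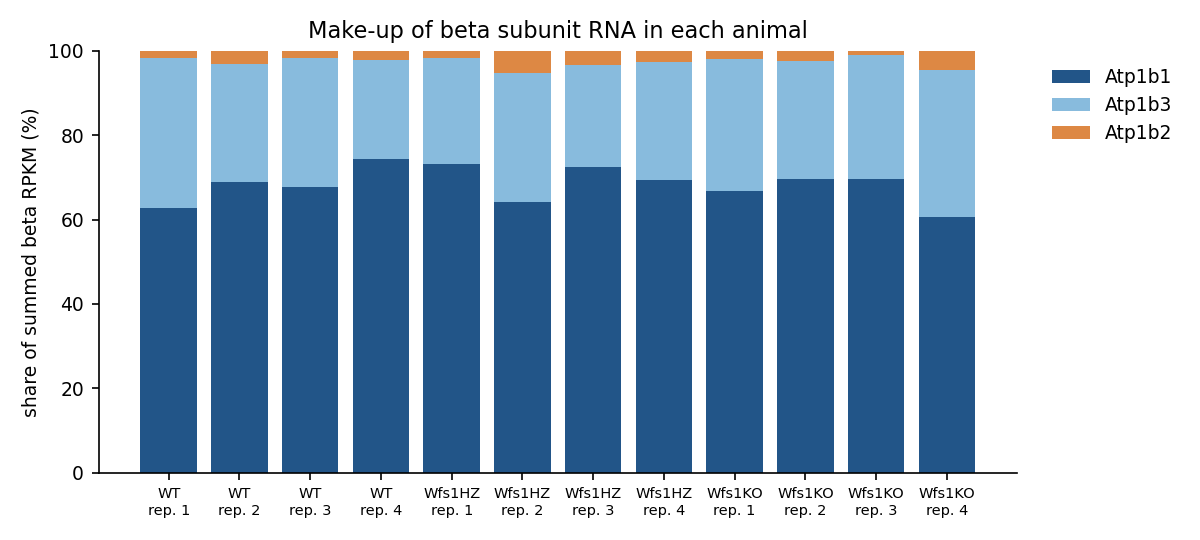
Share of each beta subunit gene in the summed RPKM of *Atp1b1*, *Atp1b3* and *Atp1b2* (percent, vertical axis from 0 to 100) in each of 12 animals (horizontal axis, by genotype and replicate). *Atp1b1* is the largest part of every bar, from 60.5% in Wfs1KO replicate 4 to 74.3% in WT replicate 4.

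Between Wfs1KO and WT, the comparison that sets islets without full-length WFS1 against wild-type islets, none of the 3 members passed the test. The log2 fold change of *Atp1b1* was 0.02 (SE 0.22), which is a ratio of 1.01 with a 95% interval of 0.720 to 1.42. Its adjusted p was 1.0 by limma with Benjamini-Hochberg adjustment over 21701 transcripts, and the exact two-sided permutation p was 0.943. *Atp1b3* differed by 0.14 on the log2 scale (SE 0.30, ratio 1.10, 95% interval 0.687 to 1.76, limma adjusted p 0.975, exact permutation p 0.771). *Atp1b2* differed by 0.09 on the log2 scale (SE 0.61, ratio 1.07, 95% interval 0.411 to 2.77, limma adjusted p 0.998, exact permutation p 0.914). The intervals leave room for differences of these sizes, widest for *Atp1b2*, and a missed threshold does not show equal levels. By limma 0 of 3 members had an FDR under 0.05, beside 0.0138% of all transcripts tested. At an unadjusted p under 0.05 the count was also 0 of 3, beside 5.64%, and 0 of 3 had genotypes that did not overlap, beside 2.74%. Without Wfs1KO replicate 4 the log2 fold changes turned to -0.15 for *Atp1b1*, -0.13 for *Atp1b3* and -0.48 for *Atp1b2*. Leaving out WT replicate 1 also turned the sign of *Atp1b1* (-0.028) and *Atp1b2* (-0.030), and leaving out WT replicate 4 that of *Atp1b1* (-0.016) and *Atp1b3* (-0.038), so no direction held without each animal in turn. Without Wfs1KO replicate 3 that of *Atp1b2* became 0.62.

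Between Wfs1KO and Wfs1HZ no member passed the test either. The log2 fold change was -0.07 for *Atp1b1* (SE 0.34, ratio 0.952, 95% interval 0.563 to 1.61, limma adjusted p 1.0, exact permutation p 0.943). It was 0.19 for *Atp1b3* (SE 0.36, ratio 1.14, 95% interval 0.653 to 2.00, limma adjusted p 1.0, exact permutation p 0.743). It was -0.49 for *Atp1b2* (SE 0.69, ratio 0.713, 95% interval 0.247 to 2.06, limma adjusted p 1.0, exact permutation p 0.6). The limma count at an FDR under 0.05 was 0 of 3, beside 0.0% of all transcripts. At an unadjusted p under 0.05 it was 0 of 3, beside 2.45%, and 0 of 3 did not overlap, beside 1.43%. Without Wfs1HZ replicate 4 the value of *Atp1b1* became -0.36 and that of *Atp1b3* -0.07. Without Wfs1KO replicate 4 the value of *Atp1b2* became -1.06 and that of *Atp1b3* -0.08.

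Between Wfs1HZ and WT, where a single functional allele remained, the largest member difference was that of *Atp1b2*, at 0.58 on the log2 scale (SE 0.49, ratio 1.49, 95% interval 0.698 to 3.20, limma adjusted p 1.0, exact permutation p 0.343). *Atp1b1* differed by 0.09 (SE 0.30, ratio 1.06, 95% interval 0.668 to 1.69, limma adjusted p 1.0, exact permutation p 0.829). *Atp1b3* differed by -0.06 (SE 0.31, ratio 0.962, 95% interval 0.591 to 1.57, limma adjusted p 1.0, exact permutation p 0.829). None of these passed the test. By limma 0 of 3 had an FDR under 0.05, beside 0.0% of all transcripts, 0 of 3 an unadjusted p under 0.05, beside 2.35%, and 0 of 3 did not overlap, beside 1.66%. Without Wfs1HZ replicate 4 the value was 0.38 for *Atp1b1* and 0.93 for *Atp1b2*, and without Wfs1HZ replicate 2 it was -0.27 for *Atp1b3* and 0.15 for *Atp1b2*. The comparisons share animals, since each genotype enters 2 of them.

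**Figure D3:**
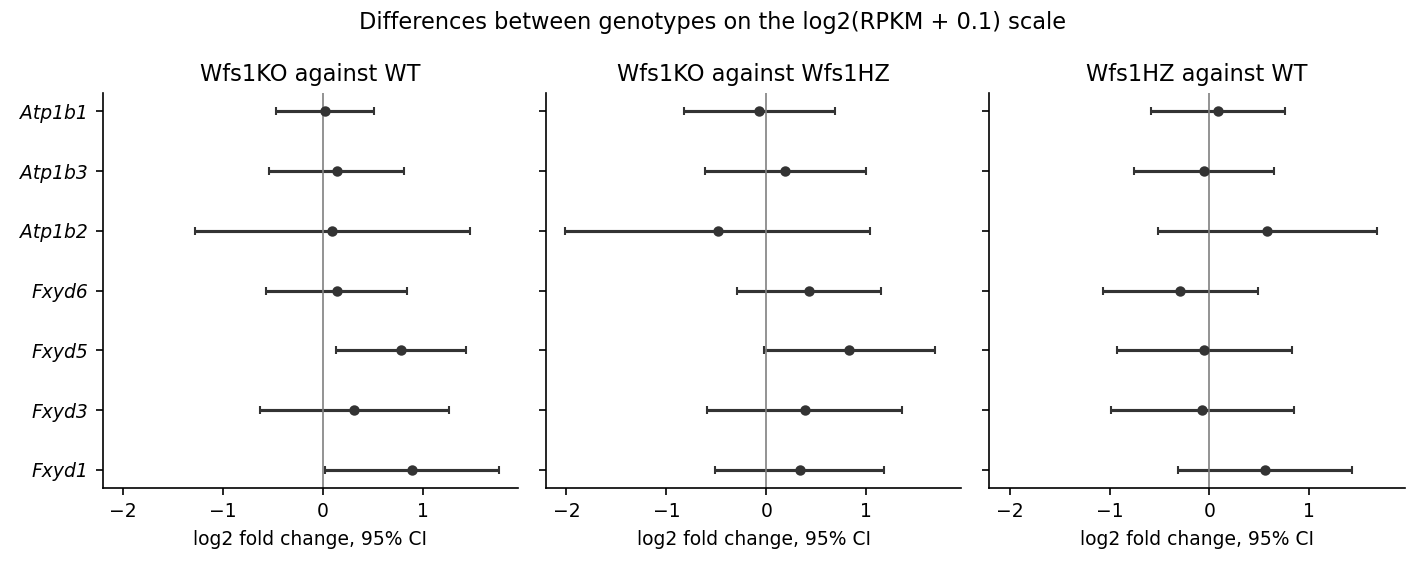
Log2 fold changes on the log2(RPKM + 0.1) scale (horizontal axes) with 95% confidence intervals for the 3 beta subunit genes and 4 FXYD genes (vertical axis) in each pair of genotypes (panels). Intervals of the beta subunit genes cross 0 in every panel, and those of *Fxyd5* and *Fxyd1* lie above 0 between Wfs1KO and WT before adjustment.

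The check on the genotype was *Wfs1* itself, whose reads can still come from the exons before the cassette. It was at 33.9, 27.4, 24.8 and 28.4 RPKM in WT and at 5.08, 6.61, 3.46 and 2.45 RPKM in Wfs1KO, with 15.0, 4.69, 16.4 and 8.16 RPKM in Wfs1HZ. Wfs1KO lay below WT without overlap, with a log2 fold change of -2.76 (SE 0.29, limma adjusted p 0.0400, above the threshold once any 1 animal was left out), while Wfs1HZ replicate 2 lay inside the range of Wfs1KO. The estimated depth was 2110000 to 9290000 reads per animal. It stands for the reads that RPKM were divided by, and the paper reports a far higher number of reads per sample. The reason for this gap was not tested. The estimated depth gave 1461 to 5044 reads on *Atp1b1*, 459 to 1788 on *Atp1b3* and 53.8 to 307 on *Atp1b2*. Counting error was then at most 2.62% for *Atp1b1*, 4.67% for *Atp1b3* and 13.6% for *Atp1b2*, below the spread between animals of a genotype. Markers of beta, alpha, delta and PP cells were present in every animal, except that *Mafa*, a transcription factor of mature beta cells, was listed at 0 in 10 of 12.

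The ratio of *Atp1b1* to *Atp1b3* within an animal does not depend on how a library is scaled. It was 1.76, 2.48, 2.23 and 3.15 in WT, 2.92, 2.11, 3.004 and 2.47 in Wfs1HZ, and 2.14, 2.51, 2.36 and 1.74 in Wfs1KO. The lowest ratios were those of Wfs1KO replicate 4 and WT replicate 1 and the highest that of WT replicate 4, so WT alone spanned nearly the whole range and the genotypes overlapped. Mean ratios were 2.40 ± 0.581 in WT, 2.63 ± 0.417 in Wfs1HZ and 2.19 ± 0.334 in Wfs1KO (SD, n = 4 each), given without a test. Summed over the 3 genes, beta subunit RNA was 249 ± 27.2 RPKM in WT, 273 ± 92.3 in Wfs1HZ and 267 ± 90.0 in Wfs1KO, with 141 RPKM in the lowest animal, Wfs1HZ replicate 4, and 397 in the highest, Wfs1KO replicate 4.

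Animals of a genotype differed in the members by more than the genotype means did, and RNA of exocrine cells moved with these differences. The 12 acinar markers in the table (such as *Cpa1*, *Cela1* and *Pnlip*, digestive enzymes made in exocrine pancreas) summed to 54660 to 122998 RPKM in WT, 9261 to 311073 in Wfs1HZ and 8716 to 282795 in Wfs1KO. A single gene, *Ctrb1*, made up most of each sum, with 258070 of the 311073 RPKM in Wfs1HZ replicate 4. Wfs1HZ replicate 4 and Wfs1KO replicate 3 had the most acinar RNA, and they had the lowest *Atp1b1* of their genotypes and of all animals. Wfs1KO replicate 4 and Wfs1HZ replicate 2 had the least, and they had the highest *Atp1b1*, *Atp1b2* and *Atp1b3* of all animals. No acinar marker in the table was at 0 in any animal. The 4 alpha cell markers, mostly *Gcg*, summed highest of each genotype in WT replicate 2 (182284 RPKM), Wfs1HZ replicate 2 (155312) and Wfs1KO replicate 4 (217190). These animals also had the highest *Atp1b1* and *Atp1b2* of their genotypes. For *Atp1b3* the highest WT value was in replicate 1, which had the lowest alpha cell sum of WT (59462). The part of exocrine or alpha cell RNA in the levels of the members and in the comparisons of genotypes was not tested.

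Over 12 animals 12 relations were computed on the log2 scale with permutation tests and adjusted together, of which 9 are given. Against the summed acinar markers Pearson's r was -0.77 for *Atp1b1*, -0.90 for *Atp1b2* and -0.88 for *Atp1b3*, with permutation adjusted p of 0.00811, 0.00088 and 0.0012. The corresponding Spearman's coefficient was -0.66, -0.74 and -0.76, with permutation adjusted p of 0.0404, 0.0232 and 0.0220. Without Wfs1HZ replicate 2 and Wfs1KO replicate 4, r was -0.70 for *Atp1b1*, -0.73 for *Atp1b2* and -0.76 for *Atp1b3*. The summed beta cell markers were nearly all *Ins1*, *Ins2* and *Iapp*. Against this sum r was -0.57, -0.54 and -0.66 for *Atp1b1*, *Atp1b2* and *Atp1b3*, with permutation adjusted p of 0.0751, 0.0867 and 0.0314. Spearman's coefficient was -0.66, -0.59 and -0.57, with permutation adjusted p of 0.0404, 0.0721 and 0.0730. Against the estimated depth r was -0.39, -0.54 and -0.44, and none of the 3 passed the test (lowest permutation adjusted p 0.0867), with Spearman's coefficients of -0.42, -0.37 and -0.27.

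RPKM divide by all reads of a library, so a class of RNA that takes many reads can lower the values of others. Libraries were therefore also scaled by the median of ratios, which sets the typical transcript equal between libraries. *Atp1b1* then ranged from 142 to 214 RPKM over all animals and its coefficient of variation fell from 23.6% to 13.7%. Its means became 167 ± 16.9 RPKM in WT, 184 ± 29.8 in Wfs1HZ and 166 ± 24.4 in Wfs1KO (SD, n = 4 each). The coefficient of variation of *Atp1b3* fell from 34.1% to 20.5% and that of *Atp1b2* from 74.9% to 59.4%. *Atp1b2* thus kept most of its spread, with 15.4 RPKM in Wfs1KO replicate 4 and 13.8 in Wfs1HZ replicate 2 against 2.20 in Wfs1KO replicate 3. Against the acinar markers r was then -0.21 for *Atp1b1* (permutation adjusted p 0.614), -0.68 for *Atp1b3* (adjusted p 0.105) and -0.77 for *Atp1b2* (adjusted p 0.0497). Without Wfs1HZ replicate 2 and Wfs1KO replicate 4 the r of *Atp1b2* was -0.38, so the last relation rested on those animals. Against the beta cell markers r was -0.21 for *Atp1b1* (permutation adjusted p 0.614), -0.48 for *Atp1b2* (adjusted p 0.205) and -0.59 for *Atp1b3* (adjusted p 0.170) after scaling, and the adjusted p of Spearman's coefficient was 0.594, 0.515 and 0.340, so none of these passed the test.

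**Figure D4:**
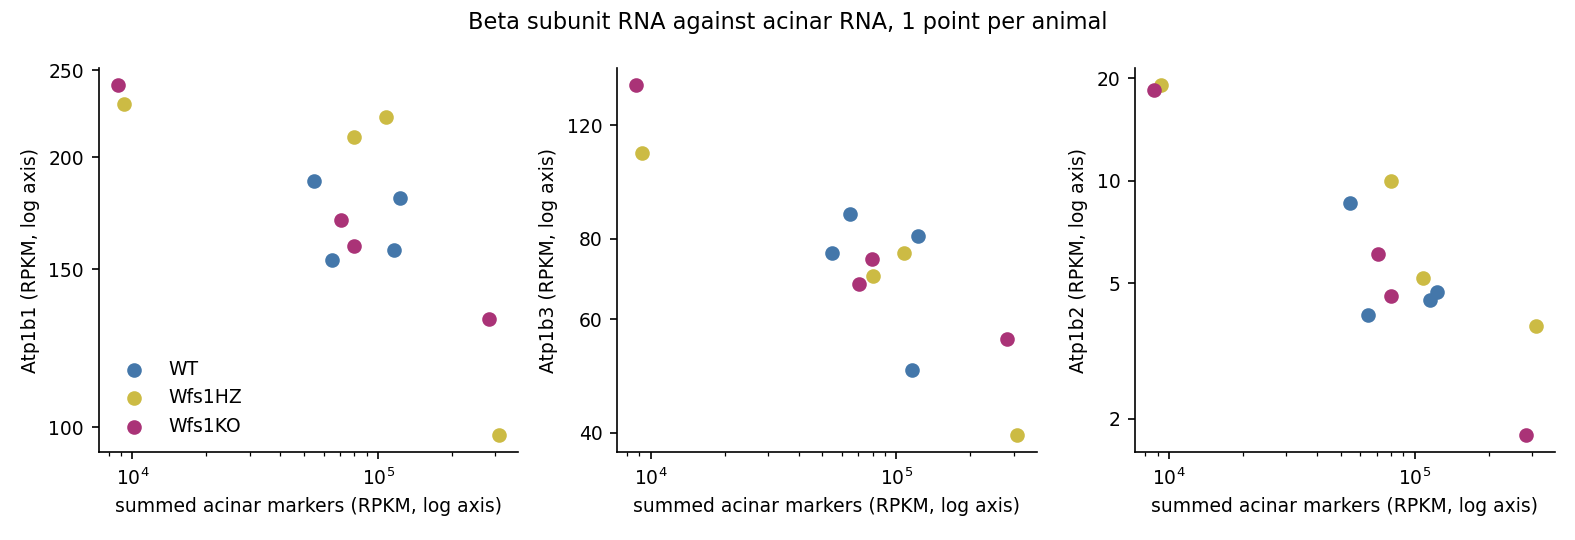
*Atp1b1* (left), *Atp1b3* (middle) and *Atp1b2* (right) against summed acinar markers, as deposited (RPKM, both axes log), with 1 point per animal coloured by genotype. Points fall from the 2 animals with least acinar RNA to the 2 with most, with r of -0.77, -0.88 and -0.90.

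The transcripts most like *Atp1b1* over 12 animals, among 5240 with a mean of at least 10 RPKM, were *Ddx6* (r = 0.97), which encodes an RNA helicase, *Nfatc3* (r = 0.96), a calcium-responsive transcription factor, and *Papd5* (r = 0.95), a poly(A) polymerase. *Atp1b3* was at rank 461 in that list. The transcripts most like *Atp1b2* were *Rab4a* (r = 0.96), a GTPase of endosomes, *Rab3ip* (r = 0.93), an exchange factor for Rab proteins, and *Rbfox2* (r = 0.93), a splicing factor. The transcripts most like *Atp1b3* were *Rhou* (r = 0.95), a small GTPase, *Rcn2* (r = 0.95), a calcium-binding protein of the endoplasmic reticulum, and *1700081L11Rik* (r = 0.95). The 3 members thus had different nearest transcripts. After median-of-ratios scaling *Ddx6* (r = 0.89) was still first for *Atp1b1*, whereas *Zfp516* (r = 0.88) was first for *Atp1b2* and *Rps3a* (r = 0.88) for *Atp1b3*. These correlations describe shared variation of the same libraries and carry no test.

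FXYD genes, the small regulators of the pump, were all 7 higher in Wfs1KO than in WT in mean log2 value, but none passed the test. Their median log2 fold change was 0.78, beside 0.07 over all transcripts, of which 57.4% were higher. *Fxyd6* was the most abundant, at 39.2 to 132 RPKM over all animals, and differed by 0.14 between Wfs1KO and WT (SE 0.31, limma adjusted p 0.977). *Fxyd5*, also known as dysadherin, was at 11.3, 14.0, 19.6 and 23.5 RPKM in WT and at 37.9, 31.9, 28.3 and 18.7 RPKM in Wfs1KO, with 31.3, 8.24, 15.6 and 15.7 RPKM in Wfs1HZ. Wfs1KO replicates 1 to 3 lay above every WT animal and replicate 4 did not. Its log2 fold change was 0.78 (SE 0.29, unadjusted p 0.0241 and adjusted p 0.835 by limma, exact permutation p 0.0857). *Fxyd1*, or phospholemman, differed by 0.89 (SE 0.39, limma adjusted p 0.879, exact permutation p 0.0857) at means of 2.50 RPKM in WT and 4.74 in Wfs1KO. *Fxyd3* was at 9.22 to 31.0 RPKM and differed by 0.31 (SE 0.42, limma adjusted p 0.951), which became 0.072 without WT replicate 3, 0.079 without Wfs1KO replicate 1 and 0.65 without Wfs1KO replicate 4. *Fxyd2*, *Fxyd4* and *Fxyd7* were low, each listed at 0 in 1 to 4 animals. Of the 7, 0 had an FDR under 0.05 by limma, beside 0.0138% of all transcripts, and 2 an unadjusted p under 0.05, beside 5.64%. Free of overlap were 0 of the 7, beside 2.74%. Summed endothelial markers were 19.2 to 49.8 RPKM in WT and 54.7 to 64.6 in Wfs1KO, with 6 of 6 genes higher and none at 0. Summed stromal markers were 18.6 to 56.9 RPKM in WT and 56.6 to 132 in Wfs1KO, with 5 of 6 genes higher and none at 0. In Wfs1HZ against WT 6 of 6 endothelial and 6 of 6 stromal genes were higher (median log2 fold change 0.71 and 0.85). Over all transcripts 53.2% were higher there (median 0.04). In Wfs1KO against Wfs1HZ 3 of 6 endothelial and 5 of 6 stromal genes were higher (median 0.02 and 0.38), beside 53.5% of all transcripts (median 0.04). The part of these cells in the FXYD values was not tested. Between Wfs1KO and Wfs1HZ 6 of 7 FXYD genes were higher (median 0.43, beside 0.04 over all transcripts). Between Wfs1HZ and WT 2 of 7 were higher (median -0.07, beside 0.04). The test was passed by 0 of 7 in either, beside 0.0% of all transcripts. An unadjusted limma p under 0.05 was found for 1 of 7 between Wfs1KO and Wfs1HZ, beside 2.45% of all transcripts. It was found for 0 of 7 between Wfs1HZ and WT, beside 2.35%.

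The other relatives and partners of the beta subunits were mostly low. *Atp1b4*, a beta family member of muscle nuclei, was at 0 to 1.67 RPKM, and *Atp4b*, the beta subunit of the gastric proton pump, was at 0 to 0.91. Of the 4 *Nkain* genes, whose products bind the beta 1 subunit, 4 were higher in Wfs1KO than in WT, as were 57.4% of all transcripts, and 0 passed, beside 0.0138% of all transcripts. The 2 catalytic proton-potassium pump genes *Atp4a* and *Atp12a* were both lower there and 0 passed. Among 19 sodium channels, exchangers and cotransporters, the routes by which sodium enters, 10 stood higher in Wfs1KO and 9 in WT. Their median log2 fold change was 0.08, beside 0.07 over all transcripts, and 0 passed, beside 0.0138%. *Slc12a2*, a sodium-potassium-chloride cotransporter, was at 6.78 to 43.6 RPKM, with a difference of 0.31 (SE 0.23, limma adjusted p 0.927).

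Of 7 other genes whose products are reported to bind or act with WFS1 protein, 4 stood higher in Wfs1KO and 3 in WT. The share higher in Wfs1KO than in WT was 57.4% over all transcripts, and 0 of the 7 passed, beside 0.0138%. Against Wfs1HZ 6 of 7 were higher in Wfs1KO, and Wfs1HZ was lower than WT in 6 of 7, with 0 of 7 passing in either. Over all transcripts 53.5% were higher in Wfs1KO than in Wfs1HZ, 53.2% were higher in Wfs1HZ than in WT, and 0.0% passed in both comparisons. *Atf6*, a sensor of unfolded protein in the endoplasmic reticulum, was at 56.1, 43.5, 45.4 and 52.2 RPKM in WT and 38.7, 37.0, 40.5 and 31.5 in Wfs1HZ. As deposited, these ranges did not overlap, as for 1.66% of all transcripts. Median-of-ratios scaling divides Wfs1HZ replicate 4 by 0.641 and WT replicate 2 by 1.11, and the ranges of *Atf6* then overlapped. The log2 fold change as deposited was -0.41 (SE 0.18, unadjusted p 0.0401 and adjusted p 1.0 by limma, exact permutation p 0.0286). *Atf6* was the only gene of the 7 with an unadjusted p under 0.05 between Wfs1HZ and WT, beside 2.35% of all transcripts. In Wfs1KO *Atf6* was at 60.9, 75.7, 42.6 and 37.9 RPKM, overlapping both. *Atp2a2*, the SERCA2 calcium pump of the endoplasmic reticulum, was at 337, 197, 233 and 279 RPKM in WT. It was at 185, 164, 225 and 164 RPKM in Wfs1HZ and at 192, 254, 143 and 161 RPKM in Wfs1KO. Its log2 fold change was -0.48 (SE 0.26, limma adjusted p 0.879) between Wfs1KO and WT and -0.49 (SE 0.25, limma adjusted p 1.0) between Wfs1HZ and WT. *Syvn1*, a ubiquitin ligase of the endoplasmic reticulum, differed by 0.43 between Wfs1KO and WT (SE 0.24, limma adjusted p 0.879) and by 0.58 between Wfs1KO and Wfs1HZ (SE 0.24, unadjusted p 0.0358 and adjusted p 1.0 by limma). It was the only gene of the 7 with an unadjusted p under 0.05 against Wfs1HZ, beside 2.45% of all transcripts.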

How the data were processed

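Islet RNA of 12 mice (4 each of WT, Wfs1HZ and Wfs1KO, grouped by the labels) was sequenced by the authors on a SOLiD 5500xl after amplification from 10 ng of total RNA with the Ovation V2 system, and mapped to mm10 with LifeScope. The authors deposited RPKM, 1 column per animal, rounded to 2 decimals. The annotation and counting tool are not given in the sources used here. RPKM are not counts, so log2(RPKM + 0.1) was fitted per pair of genotypes with limma (version 3.58.1, R 4.3.3, trend in the variance), with Benjamini-Hochberg adjustment over the 21701 transcripts whose mean reached 0.1 RPKM. Fold changes on this scale understate those of low transcripts. Exact two-sided permutation tests were added with scipy 1.17.1. Depth was estimated from RPKM of genes under 200 nt, which are multiples of 1 read. The estimates cover counting error only, and a floor of 3 reads on a 2 kb transcript is 0.161 to 0.712 RPKM. The labels give no batch. Named genes were *Wfs1*, the members, the genes of the lists on beta subunit relatives, regulators, sodium routes and WFS1 partners, and the 3 transcripts most like each member. Some genes of the lists, and the planned ratio and relations that need them, are not reported here. Members and lists were chosen with earlier results of these data known. The fitting procedure was tested on simulated data. Alternatives were other pseudocounts, filters, scalings, variance models, a replicate block and leaving out animals. Python 3.11.15 with numpy 2.4.6, pandas 2.3.3 and matplotlib 3.10.9 was used.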

Additional observations from a re-analysis of the deposited data

Results flagged for a closer look

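In 24 groups of 4 animals tested for a value far from the others (the members, *Wfs1* and 4 FXYD genes, each in 3 genotypes), 1 was found. Chance flags about 1 in 20 such groups, so 1 in 24 is near what chance gives. *Atp1b1* was at 97.99 RPKM in Wfs1HZ replicate 4, against 211 to 229 RPKM in the other Wfs1HZ animals. After median-of-ratios scaling the same animal had 153 RPKM of *Atp1b1*, beside 165 to 214 RPKM in the others. It also had the most acinar RNA, 311073 RPKM summed over markers, and its part in these values was not tested.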

How the results depend on the processing

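With 4 animals per genotype the intervals of the members are wide, and *Atp1b2* is the least precise. Over 9 fold changes of the members and 180 values under the alternatives, 25 changed sign, 0 crossed the threshold, and the lowest limma adjusted p was 0.676. The log2 fold change of *Atp1b1* between Wfs1KO and WT was -0.013 with median-of-ratios scaling and -0.031 with sample weights, and that of *Atp1b2* was -0.050 with sample weights. With quantile normalization *Atp1b3* was at -0.029 between Wfs1KO and Wfs1HZ and 0.083 between Wfs1HZ and WT, and without Wfs1HZ replicates 2 and 4, chosen after seeing the data, it was 0.020 in the latter. The cause of these changes was not tested.

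Leaving out 1 animal at a time gave, between Wfs1KO and WT, -0.15 to 0.14 for *Atp1b1*, -0.48 to 0.62 for *Atp1b2*, -0.13 to 0.30 for *Atp1b3*, 0.072 to 0.65 for *Fxyd3* and -0.040 to 0.37 for *Fxyd6*. Between Wfs1KO and Wfs1HZ it gave -0.36 to 0.053 for *Atp1b1*, -1.06 to 0.039 for *Atp1b2* and -0.076 to 0.41 for *Atp1b3*. Between Wfs1HZ and WT it gave -0.027 to 0.38 for *Atp1b1* and -0.27 to 0.21 for *Atp1b3*. *Wfs1* stayed lower in Wfs1KO under every alternative (-2.98 to -2.51), with limma adjusted p from 0.00157 to 0.541.

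Between Wfs1KO and WT 3 transcripts had an FDR under 0.05 by limma, and the count was 0 with a pseudocount of 1, 5 with quantile normalization, 1 with all 12 samples in a single fit, and 0 to 1 when 1 animal was left out. Between Wfs1KO and Wfs1HZ it was 1 with quantile normalization, 1 with a robust variance and 5 with sample weights, while for Wfs1HZ against WT the count was 1 with no filter and 2 with a variance without trend. With a replicate block it was 0 between Wfs1KO and WT. Deviations of same-numbered animals correlated at -0.24 to 0.11 for Wfs1KO with WT. The range was -0.28 to 0.12 when Wfs1KO was set against the heterozygotes, and -0.07 to 0.34 when the heterozygotes were set against WT. In the last of these, replicates 2 and 4 correlated best with their own number (r of 0.31 and 0.34). All other animals correlated best with a different number. These values cannot decide whether the numbers pair the animals, since a pairing need not show in such correlations.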
